A study of Mus musculus with 24 samples.

Results

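The genes described here are 10 genes of the G1 phase engine of the cell cycle, chosen by name from the 28328 genes of the table: the D cyclin genes Ccnd1, Ccnd2 and Ccnd3, the E cyclin genes Ccne1 and Ccne2, the kinase genes Cdk4, Cdk6 and Cdk2, and the inhibitor genes Cdkn1b (p27) and Cdkn2c (p18). They were followed in LLC1, a line from the mouse Lewis lung carcinoma, by sequencing of poly(A) RNA. The groups at each time were combination (TCP: cisplatin 2.5 µM, pemetrexed 2.5 µM and trametinib 10 nM), chemotherapy (CP: cisplatin 2.5 µM and pemetrexed 2.5 µM), trametinib (T: 10 nM) and untreated (NT: 0.1% DMSO alone). The labels give no DMSO content for the treated groups. Each was sampled at 24 h and at 6 h with 3 libraries, 24 libraries in 8 groups. All groups come from 1 cell line.

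D cyclins are the growth factor sensors of the cell cycle. They bind Cdk4 or Cdk6, and these pairs begin to phosphorylate the retinoblastoma protein, which frees E2F factors to switch on S phase genes, among them the E cyclin genes. E cyclins then bind Cdk2 to complete that phosphorylation and to start replication. The protein p27 binds and inhibits cyclin E with Cdk2 and is also carried by cyclin D complexes, whereas p18 binds Cdk4 and Cdk6 themselves. The kinase MEK, which trametinib inhibits, activates ERK, and ERK signalling is a known driver of Ccnd1 transcription. Cisplatin crosslinks DNA and pemetrexed blocks folate-dependent nucleotide synthesis.

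Values are TPM, a length-corrected share of all transcripts in a library, so levels can be compared between genes. Depth is unknown because TPM keeps none. Differences are log2 differences of TPM + 1 with their standard errors, from limma's moderated test over 12581 genes, and a gene is said to have risen or fallen only at a Benjamini-Hochberg adjusted p under 0.05. All 10 genes passed the filter of 1 TPM in 3 libraries. The labels do not say that the 3 libraries of a group came from separate cultures, so p-values here reflect only how these libraries vary, possibly for technical reasons alone. In bulk RNA, fewer cells of a kind and less RNA per cell cannot be told apart, and comparisons with untreated cells at 1 time share the same 3 untreated libraries.

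The libraries resembled each other within groups, with correlations of 0.993 to 0.997 over all genes, and 11242 to 11851 genes reached 1 TPM in a library. Krt8 and Krt18, keratins of simple epithelia, averaged 136 and 223 TPM and Vim, an intermediate filament of mesenchymal cells, 3761 TPM, while the epithelial adhesion genes Epcam and Cdh1 stayed at or under 0.154 TPM. The defining leukocyte genes Adgre1 and Cd3e were listed at 0 in every library and Ptprc did not exceed 0.0121 TPM, although Cd68 ranged over 3.68 to 39.3 TPM. The summed level of the 5 fibroblast markers was 42.9 to 47.7 TPM with the combination, 8.27 to 9.09 TPM with chemotherapy, 28.4 to 29.3 TPM with trametinib and 5.57 to 6.19 TPM in untreated cells at 24 h. At 6 h it was 10.1 to 12.9, 3.52 to 3.69, 7.81 to 10.8 and 2.51 to 3.18 TPM in the same order of groups. The 4 mesenchyme markers summed to 11465 to 13956 TPM with the combination, 7593 to 7754 TPM with chemotherapy, 14640 to 15317 TPM under trametinib and 7147 to 7835 TPM in untreated cells at 24 h. Both lists were higher in the trametinib groups at that time, as the inhibitor genes were. The 6 epithelial markers summed at 24 h to 376 to 397, 454 to 491, 222 to 258 and 324 to 337 TPM in the same order. The 8 leukocyte markers, nearly all from Cd68, summed to 13.1 to 14.8, 33.1 to 39.3, 3.75 to 5.25 and 10.3 to 14.7 TPM, and the 4 endothelial markers to 5.27 to 6.87, 7.10 to 12.9, 3.46 to 4.46 and 2.62 to 3.61 TPM. The part of these lists in the values of the 10 genes was not tested.

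Ccnd1 (ENSMUSG00000070348.5, GRCm38 chromosome 7, 144929931 to 144939925, minus strand) was the main D cyclin gene of untreated cells. At 24 h its libraries held 92.6, 86.1 and 114 TPM with the combination, 226, 203 and 215 TPM with chemotherapy, 86.2, 86.7 and 93.7 TPM with trametinib, and 144, 146 and 144 TPM in untreated cells. The trametinib and combination libraries lay below all untreated ones and the chemotherapy libraries above them, with no overlap. Ccnd1 fell by 0.57 on the log2 scale with the combination (SE 0.16, limma adjusted p = 0.00387) and by 0.70 with trametinib (SE 0.16, adjusted p = 0.0009), and rose by 0.56 ± 0.16 (SE) with chemotherapy (adjusted p = 0.00496).

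The drop in Ccnd1 was deeper early. At 6 h the values were 64.6, 64.3 and 54.3 TPM with the combination, 232, 198 and 190 TPM with chemotherapy, 57.7, 91.1 and 45.8 TPM with trametinib, and 212, 227 and 235 TPM in untreated cells. No library with trametinib exceeded 91.1 TPM, and chemotherapy and untreated libraries overlapped. The 6 h differences from untreated cells were -1.86 ± 0.16 for the combination, -0.12 ± 0.16 (adjusted p = 0.626) for chemotherapy and -1.83 ± 0.16 for trametinib. Chemotherapy given on top of trametinib left no detectable change: the combination minus trametinib was 0.12 (95% interval -0.21 to 0.46) at 24 h and -0.03 (-0.36 to 0.30) at 6 h. The 24 h effect of trametinib was smaller than its 6 h effect by 1.14 ± 0.23 (adjusted p = 0.000534), and untreated cells themselves held less Ccnd1 at 24 h than at 6 h (-0.63 ± 0.16).

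Ccnd2 (ENSMUSG00000000184.12, chromosome 6, 127125162 to 127152193, minus strand) encodes cyclin D2 and moved the same way over a narrower range. At 24 h it stood at 58.9, 60.6 and 58.3 TPM with the combination, 78.6, 75.4 and 82.3 TPM with chemotherapy, 53.6, 49.8 and 56.9 TPM with trametinib, and 69.5, 66.6 and 66.5 TPM in untreated cells. The groups did not overlap. Trametinib lowered it (-0.33 ± 0.07 at 24 h, -0.45 ± 0.07 at 6 h), and the combination at 6 h did too (-0.42 ± 0.07). Its 6 h libraries held 71.2, 65.4 and 70.4 TPM with the combination, 97.4, 79.6 and 81.4 TPM with chemotherapy, 62.3, 72.4 and 68.7 TPM with trametinib, and 88.1, 97.3 and 92.7 TPM in untreated cells, so that only chemotherapy overlapped untreated cells. At 24 h the combination gave -0.19 ± 0.07 (adjusted p = 0.0273), a call that ended without untreated replicate 1 (-0.17) or combination replicate 1 (-0.18) or 3 (-0.17) and was -0.31 after rescaling the libraries by their median ratio. Chemotherapy raised Ccnd2 at 24 h by 0.22 ± 0.07, or 0.14 after that rescaling, and the call ended without chemotherapy replicate 3 (0.19).

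Ccnd3 (ENSMUSG00000034165.16, chromosome 17, 47505051 to 47599691, plus strand), the gene of cyclin D3, did not follow the pair. Its 24 h values were 39.3, 54.9 and 62.7 TPM with the combination, 84.9, 59.3 and 85.9 TPM with chemotherapy, 45.5, 50.01 and 42.4 TPM with trametinib, and 37.8, 40.4 and 56.5 TPM in untreated cells. Combination and trametinib libraries overlapped the untreated ones, and only the chemotherapy libraries all lay above them. Chemotherapy raised Ccnd3 by 0.76 ± 0.17 (adjusted p = 0.000884). At 6 h the libraries held 85.4, 103 and 113 TPM with the combination, 121, 103 and 101 TPM with chemotherapy, 94.9, 103 and 78.9 TPM with trametinib, and 77.5, 75.2 and 81.7 TPM in untreated cells. Trametinib overlapped untreated cells there, and combination and chemotherapy lay above them without passing the test (0.35 ± 0.17, adjusted p = 0.0932, and 0.46 ± 0.17, adjusted p = 0.0584, the second passing at 0.48 after the rescaling). For trametinib the differences were 0.05 (95% interval -0.31 to 0.41) at 24 h and 0.23 (-0.13 to 0.59) at 6 h, so a change of the size seen in Ccnd1 at 6 h lay outside the interval. The combination was lower than chemotherapy at 24 h by -0.55 ± 0.17 (adjusted p = 0.0115), and that call ended with a spread from those groups alone (adjusted p = 0.0721), or without chemotherapy replicate 1 (-0.47) or 3 (-0.46) or combination replicate 1 (-0.36).

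With these differences the make-up of the D cyclin pool shifted. The summed D cyclin level at 6 h was 230 ± 8.3 TPM with the combination, 401 ± 43 TPM with chemotherapy, 225 ± 38 TPM under trametinib and 395 ± 16 TPM in untreated cells (SD, n = 3 each). Ccnd1 supplied 26.6%, 51.5%, 28.2% and 56.8% of it in the same order, and Ccnd3 supplied 43.5%, 27.02%, 41.2% and 19.8%. By gene sum, Ccnd3 was thus the most abundant D cyclin mRNA in the libraries with trametinib at 6 h. Over its protein-coding transcripts it averaged 99.02 TPM with the combination and 91.3 TPM with trametinib. Its main transcript alone, Ccnd3-205, held 65.5 and 53.996 TPM in that order, less than Ccnd2 at 68.97 and 67.8 TPM. The lead of Ccnd3 over Ccnd2 thus rested on its minor transcripts. Of these, Ccnd3-208 varied widely between libraries, at 17.96 ± 17.6 and 15.7 ± 9.7 TPM (SD, n = 3 each). By 24 h Ccnd1 led again in all groups, with 46.6% of 209 TPM with the combination, 58.1% of 370 TPM with chemotherapy, 47.2% of 188 TPM with trametinib and 56.3% of 257 TPM in untreated cells.

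**Figure D1:**
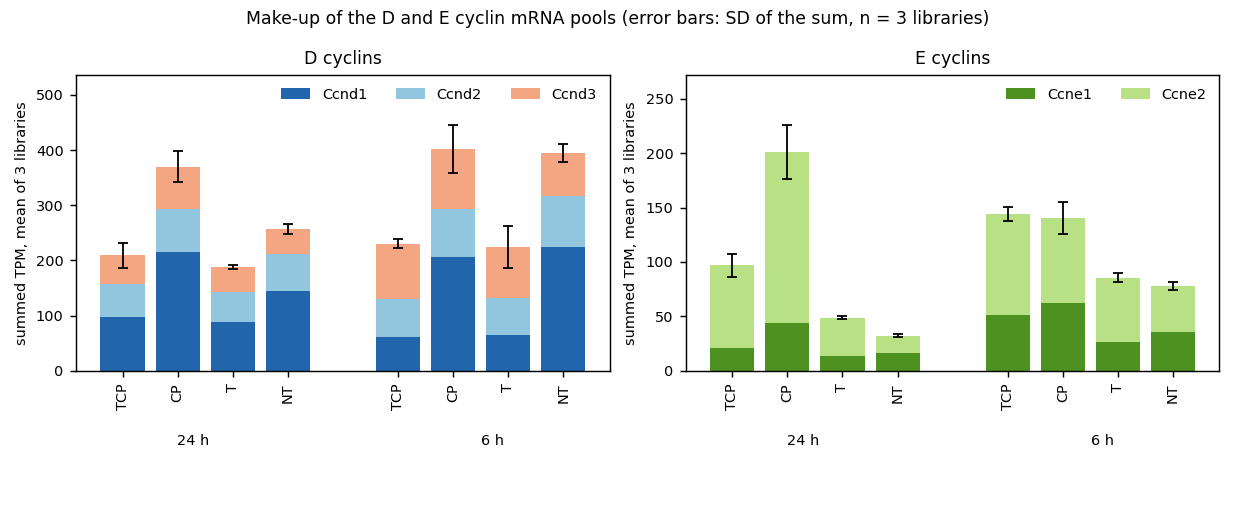
Stacked bars give the mean TPM of each D cyclin gene (left) and E cyclin gene (right), summed, for combination (TCP), chemotherapy (CP), trametinib (T) and untreated (NT) cells at 24 h and 6 h, with the SD of the sum over 3 libraries. The blue Ccnd1 part is shortest in the TCP and T bars at 6 h, and the E cyclin bar is tallest with chemotherapy at 24 h, at 201 TPM against 32.2 TPM in untreated cells.

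Ccne2 (ENSMUSG00000028212.16, chromosome 4, 11191351 to 11204779, plus strand), an E cyclin gene and known E2F target, spanned the widest range of the 10 genes, 11.8-fold between its lowest and highest library. At 24 h it held 78.9, 65.0 and 82.9 TPM with the combination, 162, 129 and 179 TPM with chemotherapy, 33.4, 36.8 and 34.0 TPM with trametinib, and 15.1, 15.5 and 16.8 TPM in untreated cells. These 4 groups did not overlap. Chemotherapy raised Ccne2 by 3.21 ± 0.12 (9.28-fold on the TPM + 1 scale, adjusted p = 3.3e-14), the combination by 2.18 ± 0.12 (4.53-fold) and trametinib alone by 1.09 ± 0.12 (2.12-fold).

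At 6 h the Ccne2 libraries were nearer each other, at 98.0, 87.7 and 92.4 TPM with the combination, 91.6, 64.0 and 79.5 TPM with chemotherapy, 56.7, 59.1 and 60.1 TPM with trametinib, and 40.7, 43.6 and 42.7 TPM in untreated cells. All treated libraries lay above the untreated ones, and combination and chemotherapy overlapped. The differences from untreated cells were 1.11 ± 0.12, 0.86 ± 0.12 and 0.46 ± 0.12 in the same order. The trametinib call at 6 h was lost over protein-coding transcripts alone (0.21, adjusted p = 0.0735). Such transcripts held 51.1% to 91.6% of the TPM of Ccne2 over the 24 libraries. The effect of chemotherapy was 2.36 ± 0.16 larger at 24 h than at 6 h. Untreated cells held less Ccne2 at 24 h than at 6 h (-1.37 ± 0.12).

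Ccne1 (ENSMUSG00000002068.16, chromosome 7, 38097984 to 38107534, minus strand), the other E cyclin gene, rose with chemotherapy and fell with trametinib. At 24 h it was 21.4, 20.1 and 22.7 TPM with the combination, 44.7, 44.6 and 43.0 TPM with chemotherapy, 14.7, 13.4 and 14.0 TPM with trametinib, and 16.4, 18.5 and 14.3 TPM in untreated cells. Chemotherapy stood apart from all other groups of that time, and trametinib overlapped untreated. The differences were 0.37 ± 0.08, 1.38 ± 0.08 and -0.21 ± 0.08. The trametinib call at 24 h (adjusted p = 0.0308) ended with the spread of those groups alone (adjusted p = 0.102) and without untreated replicate 1 (-0.20) or 2 (-0.12) or trametinib replicate 2 (-0.18) or 3 (-0.20).

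At 6 h Ccne1 was 53.4, 50.7 and 50.1 TPM with the combination, 62.9, 60.7 and 62.3 TPM with chemotherapy, 24.2, 30.0 and 26.6 TPM with trametinib, and 34.8, 38.3 and 33.5 TPM in untreated cells. No group overlapped another. Trametinib lowered it by -0.39 ± 0.08 and the combination raised it by 0.52 ± 0.08, while the combination stayed under chemotherapy (-0.27 ± 0.08, or -0.41 after the rescaling). So the gene sums of the E cyclins parted under trametinib at 6 h, Ccne1 down and Ccne2 up. That Ccne2 call was lost over protein-coding transcripts alone. By gene sum Ccne2 made up 64.3% of the E cyclin pool with the combination, 55.6% with chemotherapy, 68.6% with trametinib and 54.4% in untreated cells. Over protein-coding transcripts Ccne2 was 64.6, 54.1, 34.6 and 29.5 TPM in that order, and Ccne1 49.9, 60.1, 26.2 and 34.6 TPM. Ccne1 thus led there with chemotherapy and in untreated cells.

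In combination with chemotherapy, trametinib kept both E cyclin genes far below the sum of the separate log2 effects at 24 h. The combination missed that sum by -2.12 ± 0.16 in Ccne2 (adjusted p = 1.87e-08) and by -0.80 ± 0.11 in Ccne1 (adjusted p = 2.2e-05). It was also lower than chemotherapy in each (-1.03 ± 0.12 and -1.01 ± 0.08) and higher than trametinib (1.09 ± 0.12 and 0.58 ± 0.08).

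Cdk2 (ENSMUSG00000025358.16, chromosome 10, 128697939 to 128705031, minus strand), the partner kinase of the E cyclins, moved with chemotherapy. The 24 h libraries held 55.3, 55.0 and 52.1 TPM with the combination, 57.4, 59.3 and 55.5 TPM with chemotherapy, 37.5, 34.8 and 38.2 TPM with trametinib, and 35.1, 34.2 and 32.1 TPM in untreated cells. All libraries with chemotherapy lay above all without it, at 6 h as well. The 6 h values were 68.3, 66.0 and 70.2 TPM with the combination, 67.1, 56.7 and 59.8 TPM with chemotherapy, 41.8, 43.0 and 43.9 TPM with trametinib, and 38.5, 40.3 and 38.9 TPM in untreated cells. The rises were 0.66 ± 0.05 with the combination and 0.75 ± 0.05 with chemotherapy at 24 h, and 0.78 ± 0.05 and 0.63 ± 0.05 at 6 h. Trametinib alone gave 0.12 ± 0.05 at 24 h (adjusted p = 0.063, passing without untreated replicate 1 at 0.15 or trametinib replicate 2 at 0.16) and 0.13 ± 0.05 at 6 h (adjusted p = 0.0559). The small excess of the combination over chemotherapy at 6 h (0.16 ± 0.05, adjusted p = 0.0194) was 0.01 after the rescaling and was lost with the spread of those groups alone, and without chemotherapy replicate 2 (0.10) or 3 (0.14) or combination replicate 3 (0.14).

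**Figure D2:**
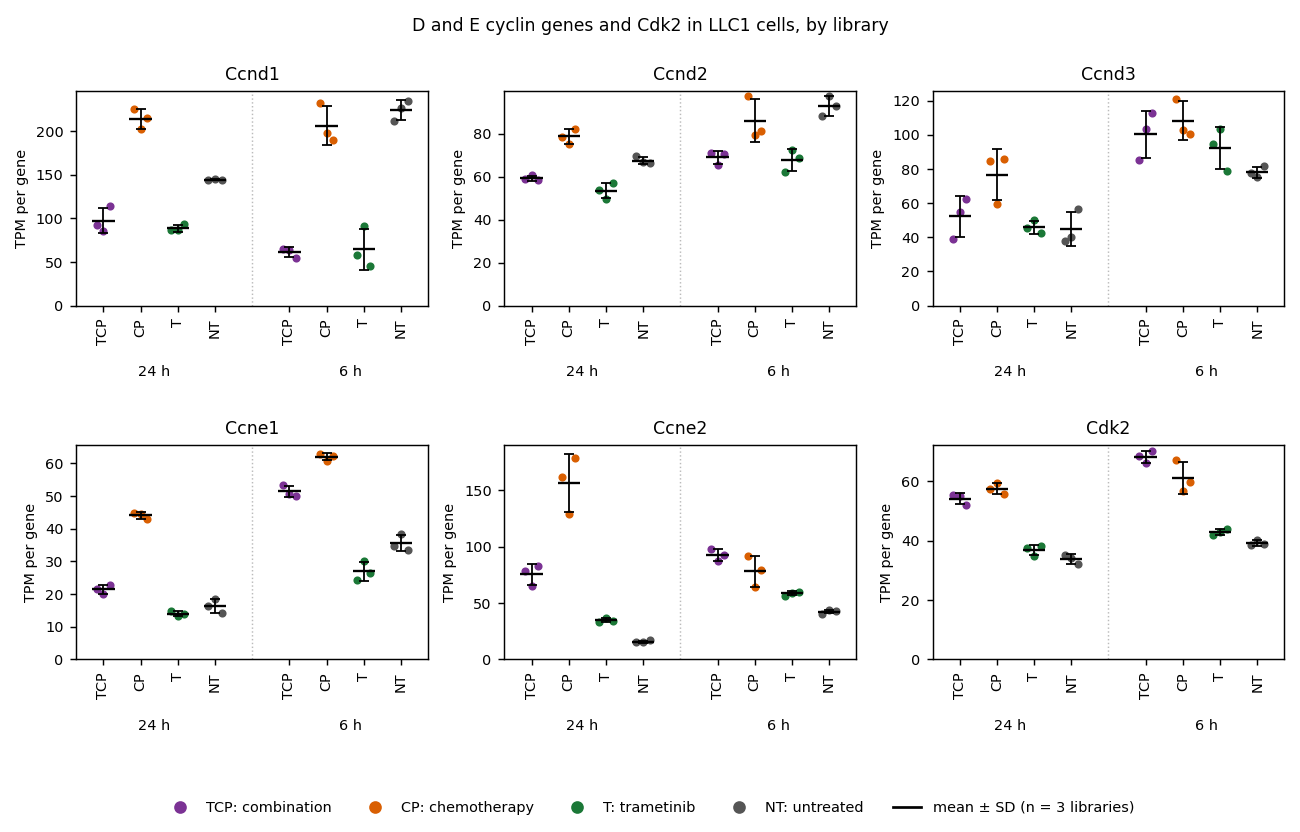
Points are libraries, in TPM per gene, of the D and E cyclin genes and Cdk2 for combination (TCP), chemotherapy (CP), trametinib (T) and untreated (NT) cells at 24 h (left of the dotted line) and 6 h, with the mean and SD of 3. Ccnd1 is lowest in the TCP and T groups at 6 h, and Ccne2 is highest with chemotherapy at 24 h, where its libraries span 129 to 179 TPM.

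The promoter of Cdk2 is shown because, of the 9 member promoters available, it was the only one with more than 1 match to the E2F-type sequence TTCCCGC. It is taken from RefSeq, GRCm38.p6, chr10:128705002-128705301, minus strand, 250 bases before to 50 after the start, with the 2 matches in capitals, both as the reverse complement GCGGGAA.

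Cdk2 promoter: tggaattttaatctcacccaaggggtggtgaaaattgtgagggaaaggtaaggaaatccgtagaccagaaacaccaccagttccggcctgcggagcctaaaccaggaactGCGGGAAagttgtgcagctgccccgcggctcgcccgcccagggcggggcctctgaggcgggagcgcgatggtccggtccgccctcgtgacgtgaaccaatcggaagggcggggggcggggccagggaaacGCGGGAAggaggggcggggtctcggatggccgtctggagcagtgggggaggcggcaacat

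That sequence was searched on both strands of 32851 promoters of the same length and 4.60% held it at least once. How many held it more than once was not counted. The match is a description of letters and says nothing of binding there. TTGGCGC, the other E2F-type sequence, was searched in the same way and is in 2.45% of promoters. The AP-1 type TGACTCA is in 5.20% and the ETS type CCGGAAG in 8.86%. None of these was in the Cdk2 window. Of the 10 genes, 7 had an entry, 9 entries in all, and Ccnd1, Ccnd2 and Ccne2 had none. The window of Ccne1 and that of Cdkn1b held none of the sequences searched, and 1 of the 2 windows of Ccnd3 held CCGGAAG. Besides Cdk2, 1 of the 2 windows of Cdkn2c held TTCCCGC, at 1 place.

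The gene sum of Cdk2 hid a change between its transcripts. Cdk2-202 carries an exon that Cdk2-201 lacks, exon 6 of 8, at chr10:128699976-128700119 on the minus strand of GRCm38, of 144 bases, all coding and a whole 48 codons. Its sequence is shown here because it is what separates the transcripts.

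Cdk2-202 exon 6: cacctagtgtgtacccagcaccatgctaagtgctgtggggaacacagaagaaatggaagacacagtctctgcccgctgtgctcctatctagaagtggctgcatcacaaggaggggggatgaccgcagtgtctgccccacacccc

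Cdk2-202 held 16.9%, 17.0% and 12.8% of the TPM of Cdk2 with the combination at 24 h, 15.9%, 13.2% and 17.8% with chemotherapy, 27.8%, 38.0% and 39.6% with trametinib, and 67.5%, 68.4% and 69.3% in untreated cells. At 6 h its share was between 17.5% and 27.6% in all 12 libraries. Untreated cells at 24 h were thus the group that stood apart, and the trametinib libraries lay between them and the others.

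Tested over 34140 transcripts at 24 h, Cdk2-201 rose by 2.00 ± 0.08 with the combination, 2.08 ± 0.08 with chemotherapy and 1.09 ± 0.08 with trametinib. Cdk2-202 fell by 1.36, 1.28 and 0.81 (SE 0.16 each) in the same comparisons. In untreated cells Cdk2-201 was lower at 24 h than at 6 h (-1.43 ± 0.08) and Cdk2-202 was higher (1.31 ± 0.16). All 8 values passed the adjusted threshold (adjusted p from limma, 0.000722 or less), where 34% of transcripts passed with the combination, 33.1% with chemotherapy, 28.6% with trametinib and 32.1% between times. They kept their direction and call with each library left out in turn. Shares within a gene are estimates by the quantifier, which divides reads between transcripts that overlap over most of their length.

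**Figure D3:**
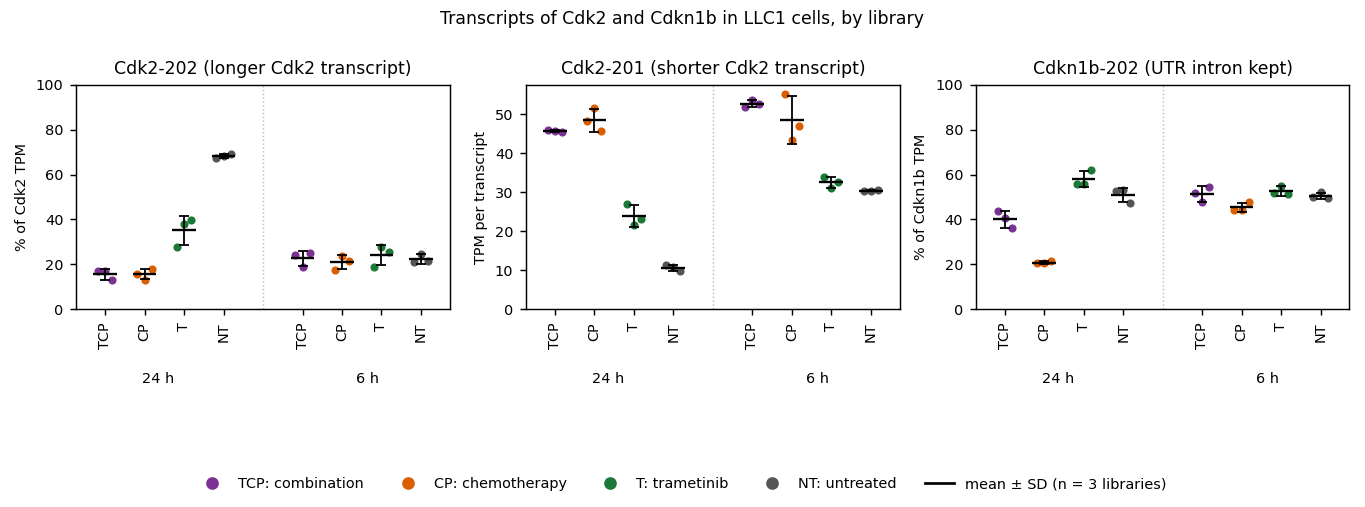
Points are libraries, with the mean and SD of 3, for combination (TCP), chemotherapy (CP), trametinib (T) and untreated (NT) cells at 24 h (left of the dotted line) and 6 h. Panels give the percent of Cdk2 TPM in Cdk2-202, the TPM of Cdk2-201, and the percent of Cdkn1b TPM in Cdkn1b-202. Untreated cells at 24 h stand at 68.4% Cdk2-202 and chemotherapy at 24 h at 20.8% Cdkn1b-202.

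The D cyclin kinases were present at very different levels. Cdk4 (ENSMUSG00000006728.12, chromosome 10, 127063534 to 127067920, plus strand) averaged 1171 TPM and Cdk6 (ENSMUSG00000040274.11, chromosome 5, 3341485 to 3531008, plus strand) 9.74 TPM. By gene sum, Cdk6 supplied at most 1.42% of their total in any library. Over protein-coding transcripts alone, untreated cells at 24 h held 261 TPM of Cdk4 and 12.6 TPM of Cdk6.

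Cdk6 fell wherever trametinib was given. At 24 h its libraries held 8.81, 8.11 and 9.02 TPM with the combination, 11.1, 8.98 and 10.4 TPM with chemotherapy, 6.90, 5.31 and 6.91 TPM with trametinib, and 13.3, 11.9 and 12.5 TPM in untreated cells. All treated libraries lay below the untreated ones. The differences were -0.49 ± 0.17 (adjusted p = 0.0179), -0.28 ± 0.17 (adjusted p = 0.17) and -0.89 ± 0.17 (adjusted p = 0.000192). The combination call at 24 h ended without untreated replicate 1 (-0.45) or combination replicate 2 (-0.45), and the chemotherapy value passed with the spread of those groups alone (adjusted p = 0.0315) and after the rescaling (-0.35, adjusted p = 0.0497).

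At 6 h Cdk6 held 6.95, 5.48 and 8.88 TPM with the combination, 14.2, 7.89 and 9.56 TPM with chemotherapy, 6.67, 9.75 and 7.62 TPM with trametinib, and 12.7, 15.9 and 15.0 TPM in untreated cells. The chemotherapy libraries spread over most of that range. Cdk6 fell with the combination (-0.95 ± 0.17) and trametinib (-0.79 ± 0.17), and for chemotherapy the value of -0.46 ± 0.17 (adjusted p = 0.0576) turned on 1 library, being -0.68 and past the threshold without its replicate 1, and it also passed after the rescaling (-0.45). The combination against chemotherapy (-0.50 ± 0.17, adjusted p = 0.0196) was likewise -0.28 without that library and -0.34 without combination replicate 2, both past the threshold no longer.

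Cdk4 went the other way by small amounts. At 24 h it held 1260, 1305 and 1340 TPM with the combination, 1020, 1078 and 1039 TPM with chemotherapy, 1088, 1078 and 1101 TPM with trametinib, and 924, 950 and 938 TPM in untreated cells. Every treated library lay above the untreated ones, and those with the combination were highest. The gene sum rose by 0.47 ± 0.04 with the combination, 0.16 ± 0.04 with chemotherapy and 0.22 ± 0.04 with trametinib. The 6 h libraries held 1297, 1315 and 1415 TPM with the combination, 1272, 1194 and 1236 TPM with chemotherapy, 1314, 1229 and 1209 TPM with trametinib, and 1192, 1159 and 1154 TPM in untreated cells, with each treated library above the untreated ones. At 6 h the differences were 0.20 ± 0.04 (adjusted p = 0.000456), 0.08 ± 0.04 (adjusted p = 0.194) and 0.10 ± 0.04 (adjusted p = 0.0597, passing at 0.12 without trametinib replicate 3). The last of these, for trametinib, was -0.0068 after the rescaling.

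As the quantifier divided the reads, most of the Cdk4 sum did not come from coding transcripts. Between 19.9% and 40.3% of it lay in protein-coding transcripts, with 29.7% in Cdk4-209 and 27.1% in Cdk4-206, both annotated as retained introns. Over coding transcripts alone Cdk4 was 321 ± 73 TPM with the combination, 268 ± 34 TPM with chemotherapy, 264 ± 32 TPM under trametinib and 261 ± 48 TPM in untreated cells at 24 h (SD, n = 3 each). The differences were then 0.29 (adjusted p = 0.219), 0.05 (adjusted p = 0.858) and 0.02 (adjusted p = 0.929), so no treatment effect on the coding mRNA passed. The coding values also spread more, with an SD of 48 TPM in untreated cells at 24 h against 13 TPM for the gene sum. A failure to pass there thus does not show that the coding mRNA was unchanged. After the rescaling, the chemotherapy value at 24 h was 0.08 and the combination value at 6 h 0.07, neither called. The fall in untreated cells between times held over coding transcripts (-0.54, against -0.32 ± 0.04 in the gene sum).

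The promoters of the D cyclin kinases are shown because both hold the E-box CACGTG. It is in 7.15% of the 32851 promoters at least once, the share with several matches was not counted, and 1 of the 2 windows of Cdkn2c holds it too. Both are from RefSeq, GRCm38.p6, plus strand, with CACGTG in capitals, the 4 matches of Cdk4 at chr10:127063285-127063584 and the single one of Cdk6 at chr5:3343643-3343942.

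Cdk4 promoter: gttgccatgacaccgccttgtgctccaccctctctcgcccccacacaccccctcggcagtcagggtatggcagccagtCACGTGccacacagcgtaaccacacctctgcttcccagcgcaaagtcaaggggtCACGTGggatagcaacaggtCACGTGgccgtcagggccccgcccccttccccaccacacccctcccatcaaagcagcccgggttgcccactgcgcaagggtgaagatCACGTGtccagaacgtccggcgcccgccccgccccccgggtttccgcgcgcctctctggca

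Cdk6 promoter: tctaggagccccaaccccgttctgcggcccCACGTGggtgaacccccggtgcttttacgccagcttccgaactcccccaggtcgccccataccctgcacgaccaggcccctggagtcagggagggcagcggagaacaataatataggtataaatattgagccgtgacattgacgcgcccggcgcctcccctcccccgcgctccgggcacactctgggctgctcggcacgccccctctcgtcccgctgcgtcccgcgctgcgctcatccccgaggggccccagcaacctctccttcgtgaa

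E-boxes of this form are bound by MYC and MAX and by several other factors, and their presence does not show binding in these cells. Myc was 240 ± 31 TPM with the combination, 326 ± 31 TPM with chemotherapy, 99.5 ± 3.8 TPM under trametinib and 236 ± 27 TPM in untreated cells at 24 h. Its 6 h levels were 89.8 ± 4.5, 224 ± 29, 106 ± 16 and 269 ± 12 TPM in the same order (SD, n = 3 each).

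Cdkn1b (ENSMUSG00000003031.14, chromosome 6, 134920401 to 134925513, plus strand), which encodes p27, rose wherever trametinib was given. At 24 h it held 47.8, 51.3 and 49.1 TPM with the combination, 34.8, 33.7 and 34.4 TPM with chemotherapy, 52.2, 51.1 and 50.1 TPM with trametinib, and 27.04, 26.4 and 27.1 TPM in untreated cells. Combination and trametinib overlapped each other and lay above both remaining groups. The rises were 0.86 ± 0.06, 0.34 ± 0.06 and 0.90 ± 0.06.

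The rise of Cdkn1b was in place by 6 h. Its libraries then held 35.5, 36.3 and 40.1 TPM with the combination, 20.6, 18.6 and 17.8 TPM with chemotherapy, 35.6, 36.2 and 41.5 TPM with trametinib, and 17.5, 16.8 and 17.2 TPM in untreated cells. With trametinib the lowest library held 35.5 TPM, and without it the highest held 20.6 TPM. The differences were 1.07 ± 0.06, 0.13 ± 0.06 (adjusted p = 0.11, passing at 0.15 after the rescaling) and 1.09 ± 0.06. Adding chemotherapy to trametinib changed it by -0.05 (95% interval -0.17 to 0.07) at 24 h and -0.02 (-0.14 to 0.11) at 6 h, and the first of these passed after the rescaling (-0.13, adjusted p = 0.0289). At 24 h the combination was under the sum of its parts by -0.39 ± 0.08 (adjusted p = 0.00124).

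The transcripts of Cdkn1b parted under chemotherapy. Cdkn1b-201, of 3 exons, splices out a stretch of 2159 bases (GRCm38 chr6:134922084-134924242) before its last exon. Cdkn1b-202 has 2 exons, and the coding parts of both transcripts are the same. Whether an exon of Cdkn1b-202 runs through that stretch was not examined. At 24 h Cdkn1b-202 held 40.0 ± 3.7% of the TPM with the combination, 20.8 ± 0.48% with chemotherapy, 57.8 ± 3.5% with trametinib and 51.0 ± 3.1% in untreated cells (SD, n = 3 each). Chemotherapy raised Cdkn1b-201 by 0.99 ± 0.09 and lowered Cdkn1b-202 by -0.85 ± 0.08. Trametinib raised Cdkn1b-202 by 1.06 ± 0.08 and Cdkn1b-201 by 0.67 ± 0.09, and the combination raised them by 0.50 ± 0.08 and 1.11 ± 0.09.

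Cdkn2c (ENSMUSG00000028551.14, chromosome 4, 109660876 to 109667189, minus strand), the gene of the Cdk4 and Cdk6 inhibitor p18, followed Cdkn1b. Its 6 h libraries held 35.9, 33.1 and 37.7 TPM with the combination, 15.3, 14.5 and 16.2 TPM with chemotherapy, 28.1, 25.8 and 27.6 TPM with trametinib, and 10.9, 10.6 and 11.1 TPM in untreated cells. No group overlapped another, and the order ran combination, trametinib, chemotherapy, untreated. The rises were 1.62 ± 0.06, 0.46 ± 0.06 and 1.25 ± 0.06 for combination, chemotherapy and trametinib, and the combination exceeded trametinib by 0.38 ± 0.06 (adjusted p = 0.000254).

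At 24 h Cdkn2c held 34.8, 36.0 and 33.2 TPM with the combination, 24.8, 24.9 and 24.1 TPM with chemotherapy, 37.9, 31.5 and 36.6 TPM with trametinib, and 23.0, 23.1 and 21.8 TPM in untreated cells. Combination and trametinib overlapped, and chemotherapy stood just above untreated. The differences were 0.60 ± 0.06, 0.12 ± 0.06 (adjusted p = 0.112) and 0.62 ± 0.06. Untreated cells held more Cdkn2c at 24 h than at 6 h (0.99 ± 0.06), while combination levels hardly differed between times, at 34.7 ± 1.4 and 35.6 ± 2.3 TPM. The 24 h effect was accordingly smaller than the 6 h effect for the combination (-1.03 ± 0.09), chemotherapy (-0.34 ± 0.09) and trametinib (-0.63 ± 0.09).

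**Figure D4:**
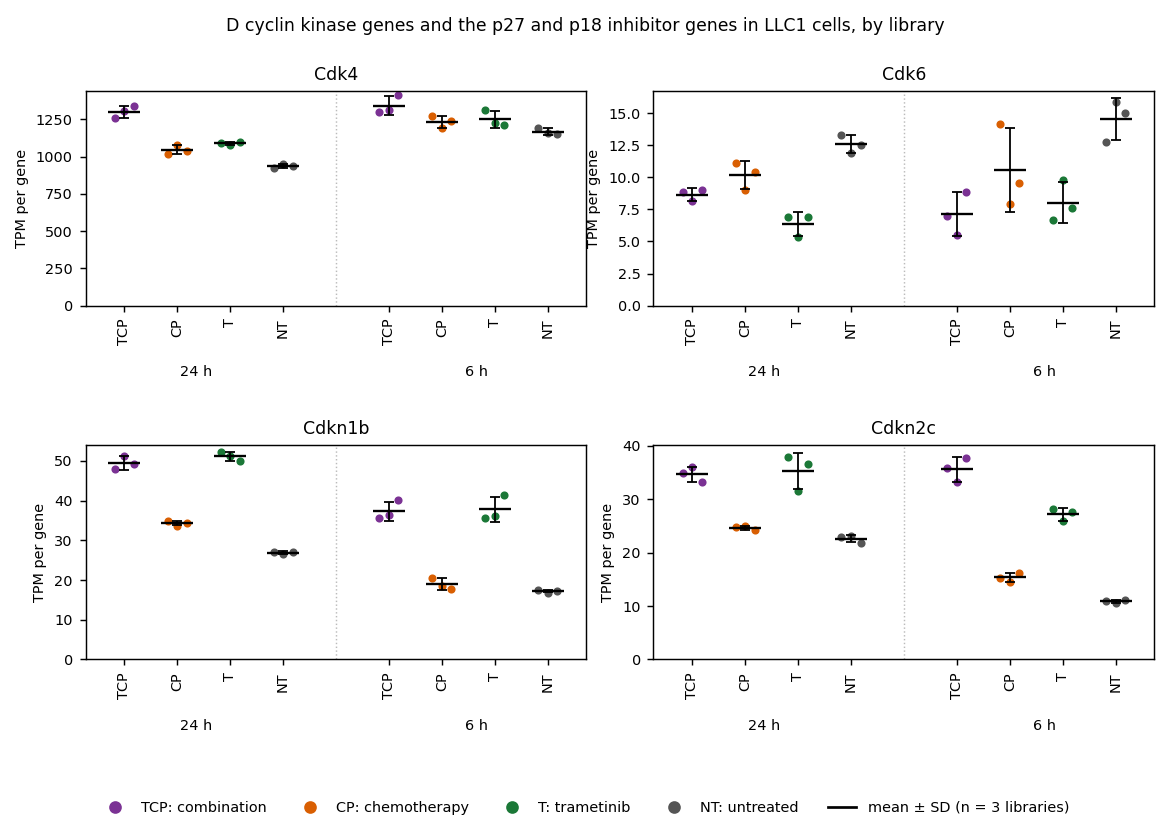
Points are libraries, in TPM per gene, of Cdk4, Cdk6, Cdkn1b and Cdkn2c for combination (TCP), chemotherapy (CP), trametinib (T) and untreated (NT) cells at 24 h (left of the dotted line) and 6 h, with the mean and SD of 3. The 6 h libraries with trametinib hold 35.5 TPM or more of Cdkn1b, and those without it 20.6 TPM or less.

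The other inhibitors of these kinases were listed with the set. Cdkn2a and Cdkn2b, the p16/p19ARF and p15 genes, were listed at 0 in every library, and Cdkn1c did not pass the filter. Cdkn1a, the p53-activated p21 gene, was the most abundant inhibitor mRNA, at 257 TPM with the combination, 372 TPM with chemotherapy, 68.2 TPM under trametinib and 173 TPM in untreated cells at 24 h. It rose with the combination (0.57 ± 0.12) and chemotherapy (1.10 ± 0.12) and fell with trametinib (-1.33 ± 0.12) at 24 h, when Cdkn1b rose. At 6 h it did not pass with trametinib, at 132 TPM against 114 TPM in untreated cells. Cdkn2d, the p19 gene of the p18 family, rose at 6 h with the combination (0.87 ± 0.08) and trametinib (1.14 ± 0.08), as Cdkn2c did.

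Across comparisons the 10 genes can be set beside all tested genes, with the percent of the 12581 that passed in each direction. Against untreated cells at 24 h, the combination had 6 higher and 3 lower (background 39.6% and 23.8%), chemotherapy 8 higher and 0 lower (34.9% and 24.3%), and trametinib 4 higher and 4 lower (32.4% and 26.3%). Thus no member passed as lower with chemotherapy at 24 h in this fit, and at an unadjusted p under 0.05 the same 8 members passed in all. Cdk6 did pass as lower after the rescaling and with the spread of those groups alone. Among the 8, Cdk4 lost its call after the rescaling (0.08) and over coding transcripts (0.05), and Ccnd2 without chemotherapy replicate 3. The member medians were 0.42, 0.45 and 0.09 on the log2 scale, against 0.10, 0.06 and 0.04 over all genes.

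At 6 h the combination had 6 higher and 3 lower (38.6% and 19.8%), chemotherapy 4 higher and 0 lower (11.3% and 13.5%), and trametinib 3 higher and 4 lower (35.9% and 18.9%). The 4 that rose with chemotherapy were Ccne1, Ccne2, Cdk2 and Cdkn2c, and 7 members had an unadjusted p under 0.05. The medians were 0.44, 0.30 and 0.11, against 0.11, 0.01 and 0.10. For trametinib, a member median close to that of all genes comes from members moving in opposite directions.

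Trametinib added to chemotherapy gave 3 higher and 5 lower members at 24 h (30.3% and 23.2%) and 4 higher and 4 lower at 6 h (39.7% and 16.4%). The falls at 24 h were Ccnd1 (-1.14 ± 0.16), Ccnd2, Ccnd3, Ccne1 and Ccne2, every cyclin gene of the set. Of these, the Ccnd3 call (-0.55) ended with the spread of those groups alone. It also ended without chemotherapy replicate 1 or 3 or combination replicate 1. At 6 h the falls were Ccnd1 (-1.74 ± 0.16), Ccnd2 (-0.31 ± 0.07), Ccne1 and Cdk6. The rises at 6 h were Cdkn1b (0.94 ± 0.06), Cdkn2c (1.16 ± 0.06), Cdk2 and Cdk4, the last by 0.12 ± 0.04 (adjusted p = 0.021), a call that ended with the spread of those groups alone (adjusted p = 0.145), without chemotherapy replicate 2 (0.10) or combination replicate 3 (0.08) and turned sign after the rescaling (-0.028) and over coding transcripts (-0.12). Chemotherapy added to trametinib gave 4 higher and 0 lower at 24 h (31.4% and 18%) and 4 higher and 0 lower at 6 h (12.3% and 6.53%), with Ccne1, Ccne2 and Cdk2 in both and Cdk4 at 24 h or Cdkn2c at 6 h as the other. Over coding transcripts the 24 h call of Cdk4 was lost against trametinib (0.26, adjusted p = 0.293) and against chemotherapy (0.24, adjusted p = 0.33). At an unadjusted p under 0.05 the numbers were 6 and 5 members.

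Beyond the sum of the separate log2 effects, 1 member was higher and 4 were lower at 24 h (16.2% and 15.6%). Besides Ccne1, Ccne2 and Cdkn1b these were Cdk2 (-0.21 ± 0.08, adjusted p = 0.0484) and, higher, Cdk6 (0.68 ± 0.24, adjusted p = 0.0401). The Cdk2 value lost its call without untreated replicate 2 or 3, chemotherapy replicate 1 or 2, trametinib replicate 1 or 3 or any combination replicate, at -0.22 to -0.17, and with the replicate block (adjusted p = 0.0574). The Cdk6 value lost it without any untreated or combination replicate, chemotherapy replicate 2 or 3 or trametinib replicate 2, at 0.57 to 0.72. At 6 h 0 members passed in either direction (0.0874% and 0.00795%), and 0 had an unadjusted p under 0.05, with values between -0.34 and 0.30.

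The size of the effects differed between times for several members. For the combination effect, 24 h minus 6 h, 3 were higher and 2 lower (25.3% and 24.3%), for chemotherapy 5 higher and 1 lower (28.3% and 16.7%), and for trametinib 2 higher and 1 lower (15.9% and 22.3%). Ccnd1 and Ccne2 were among the higher for each treatment and Cdkn2c among the lower for each. For Ccnd1 with trametinib or the combination, higher means a smaller fall at 24 h than at 6 h. For Ccne2 it means a larger rise over untreated cells of the same time, and for Cdkn2c lower means a smaller one. The Ccne2 level itself was higher at 24 h than at 6 h only with chemotherapy (156 against 78.4 TPM). It was lower with the combination (75.6 against 92.7 TPM) and trametinib (34.7 against 58.6 TPM), as in untreated cells (15.8 against 42.3 TPM). The third higher member for the combination, Cdk4 (0.27 ± 0.06), lost its call over coding transcripts (0.25, adjusted p = 0.504). In untreated cells 2 members were higher and 7 lower at 24 h than at 6 h (29.4% and 31.4%), and each of those effects is measured against these untreated libraries. The 2 higher were the inhibitors Cdkn1b (0.61 ± 0.06) and Cdkn2c, and all 5 cyclin genes, Cdk2 and Cdk4 were lower, whereas Cdk6 gave -0.19 ± 0.17 (adjusted p = 0.351).

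**Figure D5:**
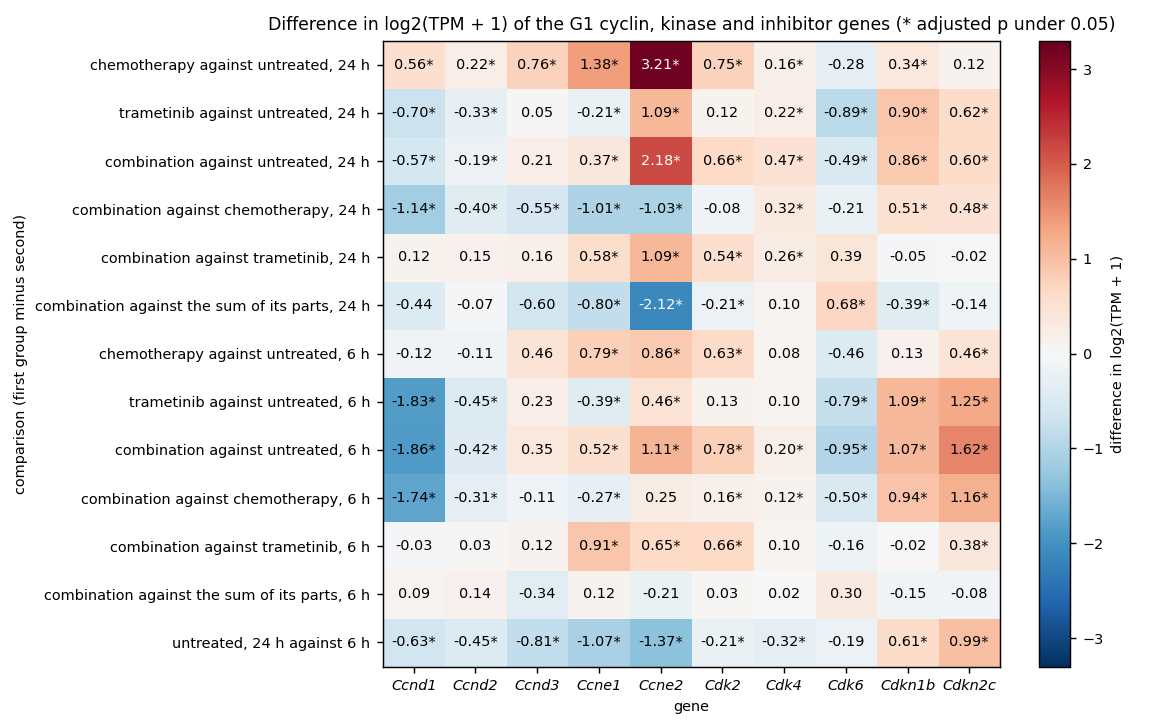
Each cell gives the difference in log2(TPM + 1), first group minus second, for a gene (columns) in a comparison (rows), with red for higher, blue for lower and a star for adjusted p under 0.05. Rows that set trametinib or the combination against untreated cells or chemotherapy at 1 time show blue Ccnd1 and Ccnd2 beside red Cdkn1b and Cdkn2c, and the strongest value is 3.21 for Ccne2 with chemotherapy at 24 h.

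Genes upstream and downstream were counted from lists picked with earlier results of these data known, so the counts describe and do not test. Beside them, 39.6% of all tested genes were higher and 23.8% lower with the combination at 24 h, 34.9% and 24.3% with chemotherapy, and 32.4% and 26.3% with trametinib, and at 6 h 38.6% and 19.8%, 11.3% and 13.5%, and 35.9% and 18.9%. Of 17 genes that follow ERK activity, 2 rose and 13 fell with the combination at 24 h, 6 rose and 2 fell with chemotherapy, and 2 rose and 14 fell with trametinib. At 6 h 1 rose and 16 fell, 2 rose and 0 fell, and 1 rose and 14 fell in the same order. Areg, an EGF receptor ligand gene, fell by 4.73 with trametinib at 24 h and Hbegf, another, by 2.31 at 6 h. At 24 h with chemotherapy, Egr1, an immediate early transcription factor gene, rose by 2.58 ± 0.10.

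Of 24 other genes known as E2F targets at the G1 to S transition, 24 rose and 0 fell with the combination at 24 h, 24 and 0 with chemotherapy, and 19 and 0 with trametinib, with medians of 1.13, 1.12 and 0.39. At 6 h 21 rose and 0 fell with the combination, 20 and 0 with chemotherapy, and 9 rose and 1 fell with trametinib. Cdc6, which loads the replicative helicase, rose by 2.50 with the combination and 2.53 with chemotherapy at 24 h. In untreated cells 22 of the 24 were lower at 24 h than at 6 h. Of 13 pocket protein and E2F genes, 7 rose and 3 fell with the combination at 24 h, 9 and 2 with chemotherapy, and 5 and 4 with trametinib, and E2f1 rose with each (1.29, 1.17 and 0.51).

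Of 20 transcription factor genes known to act on D cyclin or p27 genes, 11 rose and 3 fell with the combination at 24 h, 12 and 3 with chemotherapy, and 7 and 6 with trametinib. At 6 h the counts were 10 and 3, 5 and 4, and 9 and 3. The trametinib counts at 24 h lie near the shares over all genes. Mxd4, a MAX partner that opposes MYC, rose by 2.69 with the combination and 2.56 with trametinib at 6 h, and Fosl1, an AP-1 subunit gene, fell by 1.73 and 1.58. Of 13 genes for ubiquitin ligase parts that degrade G1 cyclins or p27, 7 rose and 1 fell with the combination at 24 h, 4 and 4 with chemotherapy, and 5 and 2 with trametinib. Skp2, the F-box gene for p27, was 33.2 ± 1.1 TPM with the combination, 38.9 ± 2.1 TPM with chemotherapy, 19.4 ± 1.7 TPM under trametinib and 17.0 ± 0.77 TPM in untreated cells at 24 h.

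Of 14 genes that p53 activates, 11 rose and 2 fell with the combination at 24 h, 10 and 1 with chemotherapy, and 1 and 12 with trametinib. Mdm2, the ligase gene for p53, rose by 2.08 with chemotherapy and fell by 1.33 with trametinib at 24 h. Of 9 genes for phosphorylation and assembly of the G1 kinases, 6 rose and 0 fell with the combination at 24 h, 3 and 2 with chemotherapy, and 2 and 2 with trametinib. Cdc25a, a phosphatase that activates Cdk2, rose by 0.91 and 1.31 in the first and second of these. The later cyclins and Cdk1, 5 tested genes, had 5 rises and 0 falls with the combination at 24 h, 1 and 3 with chemotherapy, and 2 and 2 with trametinib. Of 14 other cyclin-dependent kinase genes, 6 rose and 5 fell with the combination at 24 h, 7 and 3 with chemotherapy, and 5 and 5 with trametinib. Of 13 other cyclin genes, mostly of the transcriptional kinases, 7 rose and 3 fell, 5 and 3, and 3 and 4 in the same order. Several of these last counts, such as 5 of 14 higher with trametinib, lie near the shares over all genes.

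Likeness across libraries was measured as Pearson's r in log2(TPM + 1) over 24 libraries, searched among 3889 protein-coding genes whose group means spanned at least 1 and reached 5 TPM. It is a description, since libraries of a group share their treatment. The genes most like Ccnd1 were Gcnt2 (0.964), Atf4 (0.956) and Pim3 (0.952), and those most like Ccne2 were Clspn (0.947), Rpa2 (0.946) and Gxylt1 (0.943). Gins3 (0.984), Wdr76 (0.951) and Lpar2 (0.936) were nearest to Cdk2, Nes (0.953), Ppil1 (0.948) and Wrap53 (0.937) to Ccne1. Nearest to Cdkn1b were Capn5 (0.978), Mylip (0.978) and Tle4 (0.978), and to Cdkn2c Pdgfra (0.978), Tgfb3 (0.968) and Ctns (0.965). Among the members themselves, Cdkn1b and Cdkn2c were the most alike (0.942), followed by Ccne2 and Cdk2 (0.850), and Ccnd2 and Cdkn1b were the most opposed (-0.853).

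The nearest genes of the remaining members were Eif1ad (0.971), Ccdc137 (0.968) and Psme3 (0.965) for Ccnd2, and Zfp574 (0.972), Sac3d1 (0.964) and Unc45a (0.957) for Ccnd3. For Cdk4 they were Paxip1 (0.961), Calr (0.951) and Tubb4b (0.943), and for Cdk6 Xpo4 (0.915), Nav3 (0.910) and Ipo7 (0.907). The highest value was lowest for Cdk6, the least abundant member.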

How the data were processed

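The submitters' processing notes name bcl2fastq 2.17.1.14, kallisto 0.45 and GRCm38. The authors deposited TPM for 82934 transcripts in each of 24 libraries, which sum to 1000000 per library, so depth and counting error are unknown. Transcript TPM were summed per gene with GENCODE M21 (79662 transcripts matched in 28328 genes, and 3272 with 4.45% to 5.98% of TPM not). Values were log2(TPM + 1), which understates the change of low genes. The 12581 genes that reached 1 TPM in 3 or more libraries were fitted with limma 3.58.1 in R 4.3.3, 1 mean per group over 24 libraries (16 residual degrees of freedom), trend, two-sided, Benjamini-Hochberg adjusted over all genes and called under 0.05, in 16 comparisons. The series text describes a count-based test with a Bonferroni adjusted p under 0.10. TPM are not counts, so no count model was used, and that threshold is an alternative.

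The members, gene lists and tests were chosen with earlier results of these data known. The naming rule took all members, up to 4 called genes of a list with the smallest p in each comparison with untreated cells, and the 3 genes most like a member. Levels of Cdkn1a, Myc, Skp2 and other partners are given beside that rule, as is the Cdk2 and Cdkn1b transcript fit, chosen after their values were seen. Alternatives were the pseudocount (0.1), no filter or a mean of at least 5 TPM, median-ratio rescaling, the replicate block, coding transcripts, the spread of the compared groups and each library left out. The fit was checked on simulated data with known changes in the comparison of chemotherapy with untreated cells at 6 h. Of 50 genes changed 1.25-fold, 21 were called in the right direction. At 1.5-fold, 2-fold and 4-fold, 41, 47 and 50 of 50 were called. Small changes can therefore fail to pass. Promoters came from RefSeq, GRCm38.p6.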

Additional observations from a re-analysis of the deposited data

Results flagged for a closer look

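The effect of a treatment on several of the 10 genes differed between the times by limma's test of the difference (24 h minus 6 h, adjusted p under 0.05), which is what marks them here. For chemotherapy the difference was 2.36 in Ccne2, 0.69 in Ccnd1, 0.59 in Ccne1, 0.33 in Ccnd2 and 0.21 in Cdkn1b, and -0.34 in Cdkn2c. For trametinib it was 1.14 in Ccnd1, 0.63 in Ccne2 and -0.63 in Cdkn2c. For the combination it was 1.29 in Ccnd1, 1.07 in Ccne2 and 0.27 in Cdk4 (0.25 and no longer past the threshold over protein-coding transcripts, adjusted p = 0.504), and -0.22 in Cdkn1b and -1.03 in Cdkn2c. Each of these uses the untreated libraries of both times, in which Ccnd1 (-0.63), Ccne2 (-1.37) and Cdk4 (-0.32) were lower and Cdkn2c (0.99) higher at 24 h. The positive Ccnd1 values for trametinib and the combination mark smaller falls at 24 h than at 6 h.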

How the results depend on the processing

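Of 97 called changes of the 10 genes, 77 kept their call in every alternative other than the Bonferroni threshold, 20 lost it in at least 1, and 51 passed Bonferroni at 0.10. Under that threshold the number of members called was 3 for chemotherapy, 3 for trametinib and 5 for the combination against untreated cells at 24 h, and 2 beyond the sum at 24 h. It was 4 for trametinib against untreated cells at 6 h, 3 for the combination against chemotherapy and 2 against trametinib at 6 h, and 2, 1 and 1 for the combination, chemotherapy and trametinib effects between times. Without a filter 3 members passed beyond the sum at 24 h, after rescaling 7 passed with chemotherapy at 6 h, and with the spread of the compared groups 5 passed for the combination against chemotherapy at 6 h. With 1 library left out, the count beyond the sum at 24 h was 3 to 5 and that for chemotherapy at 6 h 4 to 6. Rescaling lowered the median of all genes by 0.113 for the combination at 24 h, 0.114 at 6 h and 0.129 for the combination against chemotherapy at 6 h, where higher calls fell to 51.2% of all calls, against 70.8% before. They were 50.3% against 62.4% for the combination at 24 h, 51.1% against 66.1% at 6 h, 52.2% against 65.5% for trametinib at 6 h, 51.0% against 63.6% and 52.6% against 65.4% for the combination against trametinib at 24 h and 6 h, and 51.2% against 62.9% for the chemotherapy effect between times.

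Values that turned sign were small. Rescaling gave -0.0068 for Cdk4 with trametinib at 6 h, -0.028 for Cdk4 in the combination against chemotherapy at 6 h and -0.0024 for Ccnd2 in the combination against trametinib at 6 h. Coding transcripts gave -0.12 for Cdk4 against chemotherapy and -0.13 against trametinib at 6 h. Leaving out 1 library moved the combination against trametinib at 6 h between -0.25 and 0.24 in Ccnd1, -0.033 and 0.075 in Ccnd2 and -0.067 and 0.052 in Cdkn1b, Ccnd3 with trametinib at 24 h between -0.059 and 0.22, and Cdkn2c in the combination against trametinib at 24 h between -0.10 and 0.028. The replicate numbers shared by groups showed no consistent pairing of the libraries. Same-number correlations were -0.317 to 0.335, with 0 of 11 comparisons where all exceeded 0.1. With 3 libraries per group such correlations cannot exclude a pairing. The replicate block ended the calls of Cdk2 beyond the sum at 24 h and of Cdkn1b in the chemotherapy effect between times (adjusted p = 0.0574 and 0.0568), leaving 4 and 5 members called, and no other call. That Cdkn1b call also ended without a filter, after rescaling (0.12) and without any untreated or chemotherapy library except chemotherapy replicate 1 at 6 h (0.17 to 0.22), and that of Cdkn1b in the combination effect without untreated replicate 2 or 3 or combination replicate 3 at 6 h, or untreated replicate 1 or 3 or combination replicate 1 or 3 at 24 h (-0.22 to -0.16). The causes were not tested.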
